A study of Flaveria robusta and Flaveria ramosissima and Flaveria trinervia with 18 samples.

Results

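A set of 478 genes was listed at or near 0 TPM in leaves of Flaveria trinervia, a C4 plant, while F. ramosissima, a C3–C4 intermediate, and F. robusta, a C3 plant, both expressed them. TPM is a measure of transcript abundance that takes account of gene length and of the library's total. The genes were chosen from the levels themselves, as rows that averaged below 0.5 TPM in the 6 libraries of F. trinervia and 5 TPM or more in the 6 libraries of each of the other species. They were 478 of 30040 rows in the table. The table gives only gene numbers and does not pair them with gene names, so functions cannot be stated, and the genes are described by their level, their spread and their light response.

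The 6 groups were F. trinervia under high light and under control light, F. ramosissima under high light and under control light, and F. robusta under high light and under control light, each with n = 3 libraries. High light was 1400 and control light 500 µmol photons m−2 s−1, while the description of growth names 200 for the chamber, and all samples were newly expanded mature leaves. The labels name no mutant, transgene or chemical treatment. The labels do not say whether the libraries of a group came from separate plants, so p-values measure the spread between these samples only, which may be technical. Each kind of photosynthesis was represented by a single species, so the pathway and the species cannot be told apart.

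In C3 leaves, CO2 is fixed by Rubisco in the mesophyll, and Rubisco also takes up oxygen, which starts photorespiration. In C4 leaves, CO2 is first fixed in the mesophyll by phosphoenolpyruvate carboxylase and then released around Rubisco in the bundle sheath. C3–C4 intermediates recapture photorespired CO2 in the bundle sheath, and Flaveria holds species of all of these kinds, which makes the genus a common model for the evolution of C4 photosynthesis. Strong light drives photosynthesis beyond its capacity and is known to change the abundance of many leaf transcripts.

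Each library's listed TPM added up to 903641 to 929124, and TPM does not keep the read depth. No counting interval or detection limit can therefore be given, and zeros are called listed at 0. The closest replicates among the expressing species had a correlation across rows of 0.950 in F. ramosissima and 0.986 in F. robusta.

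In F. trinervia, 395 of the 478 genes (82.6%) were listed at 0 in all 6 libraries. The others were close to 0. There were 83 genes above 0 in at least 1 library, of which 34 were above 0 in all 6, 45 in 2 to 5 and 4 in 1. A value of 1 TPM or more was reached by 6 genes in any library, and the highest single value was 2.08 TPM. Most residual values were found at both light levels, since 73 of the 83 genes were above 0 at both levels, 4 under high light alone and 6 under control light alone. Summed over the 478 genes, F. trinervia had 18.4 ± 1.86 TPM under high light and 24.4 ± 3.04 TPM under control light (SD, n = 3 each). In whole leaves, fewer cells that express a gene and less RNA per cell cannot be told apart. The sources used here do not give the reference, so whether a listed 0 means no transcript or no assigned reads cannot be told either.

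The near absence of these genes is what the rule selected and is given without a test. The rule was applied to 6952 rows with means of at least 5 TPM in both F. ramosissima and F. robusta, of which the 478 genes were 6.88%. Within the chosen set, 9 genes lay above 0 and below 0.1 TPM and 74 from 0.1 to below 0.5 TPM. Among the 6474 rows that were not chosen, 71 had F. trinervia means from 0.5 to below 1 TPM, 374 from 1 to below 5 TPM, 819 from 5 to below 10 TPM, 4285 from 10 to below 100 TPM and 925 at 100 TPM or more. The count by class in F. trinervia was lowest just above 0, but the classes differ in width and this one is the narrowest of those above 0. The counts alone therefore do not show a gap between the genes listed at 0 and the bulk of rows. At the threshold itself, the nearest gene inside had a mean of 0.493 TPM in F. trinervia and the nearest row outside 0.508 TPM. In F. ramosissima the nearest values were 5.03 TPM inside and just under 5 TPM outside, and in F. robusta 5.01 TPM inside and just under 5 TPM outside.

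**Figure D1:**
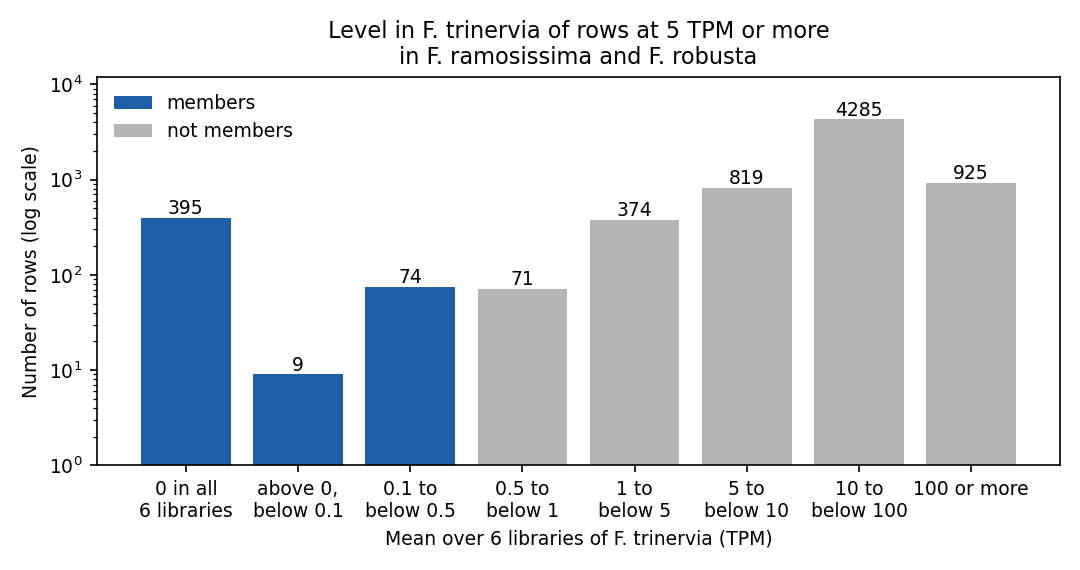
Number of rows (log scale) by mean level in F. trinervia (TPM, 6 libraries), for the 6952 rows at 5 TPM or more in F. ramosissima and F. robusta; blue bars are the 478 chosen genes and grey bars the rest. The bar at 0 holds 395 genes and the next class, above 0 and below 0.1 TPM, holds 9. The classes differ in width.

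The same rule turned to the other species gave lists of other sizes. With F. robusta as the species near 0, it found 418 rows, 6.16% of 6783 rows at 5 TPM or more in the other species, and 374 of them were listed at 0 in all 6 libraries. With F. ramosissima as the species near 0, it found 129 rows, 1.69% of 7649, and 98 of them were listed at 0 in all 6 libraries. A list of this kind was thus found for each species, and near absence in 1 species was not limited to F. trinervia.

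In the expressing species, most of the genes were of moderate abundance. Species means in F. ramosissima ran between 5.03 and 10892 TPM with a median of 16.4 TPM, and in F. robusta between 5.01 and 2348 TPM with a median of 22.9 TPM. By class, F. ramosissima had 149 genes from 5 to below 10 TPM, 276 from 10 to below 100 TPM, 48 from 100 to below 1000 TPM and 5 at 1000 TPM or more. F. robusta had 93, 322, 61 and 2 genes in the same classes. The 6474 other rows had medians of 16.7 TPM in F. ramosissima and 25.3 TPM in F. robusta, close to those of the chosen genes.

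Together the genes took a few percent of the listed TPM. Their sum was 40932 ± 1356 TPM under high light and 41316 ± 2416 TPM under control light in F. ramosissima (SD, n = 3 each), or 4.46% ± 0.158 and 4.50% ± 0.234 of the listed total. In F. robusta it was 29482 ± 1316 TPM under high light and 28484 ± 1402 TPM under control light, or 3.23% ± 0.191 and 3.12% ± 0.174. A single gene made up much of the gap between the species. Without the most abundant gene, the sums were 30904 ± 1545 and 29560 ± 763 TPM in F. ramosissima, against 29463 ± 1315 and 28457 ± 1417 TPM in F. robusta, under high light and control light in that order (SD, n = 3 each). In both species the light groups differed by less than the SD of the replicates for the full sum.

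The most abundant gene over the 12 libraries of the expressing species was far higher in F. ramosissima than in F. robusta. It had 9598, 10149 and 10338 TPM under high light and 10492, 13803 and 10975 TPM under control light there. In F. robusta it had 24.3, 18.8 and 12.9 TPM under high light and 21.0, 16.0 and 43.9 TPM under control light. Its level was 489-fold higher in F. ramosissima than in F. robusta (8.93 on the log2 scale, SE 0.23, limma adjusted p = 3.5e-11). The rule and the ranking used these same levels, so p-values for level in the ranked genes are descriptions only. The most abundant gene was listed at 0 in all 6 libraries of F. trinervia. The genes that ranked second to ninth were also listed at 0 in every F. trinervia library.

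Further down the order of abundance, the direction between the species varied. The gene of rank 5 averaged 1792 TPM in F. ramosissima and 172 TPM in F. robusta, and that of rank 6 averaged 1419 TPM in F. ramosissima and 64.7 TPM in F. robusta. The gene of rank 3 went the other way, with 360, 216 and 6.27 TPM under high light and 104, 190 and 201 TPM under control light in F. ramosissima, against 2023, 3250 and 1986 TPM under high light and 2051, 2424 and 2354 TPM under control light in F. robusta. All F. ramosissima libraries lay below all F. robusta libraries for this gene, and 1 F. ramosissima high light library was far below the rest. Ranks 2 and 7 were nearer to each other in the species, with means of 1970 and 950 TPM in F. ramosissima against 858 and 481 TPM in F. robusta. The gene of rank 9 averaged 484 TPM in F. ramosissima and 672 TPM in F. robusta and did not pass the test (difference −0.53 on the log2 scale, SE 0.23, limma adjusted p = 0.0527). Among the 12 most abundant genes, none passed for light in either species, with no unadjusted p under 0.05, and the lowest adjusted p was 0.644 in F. ramosissima and 0.586 in F. robusta.

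Levels of the chosen genes were less alike between the expressing species than those of other rows. Across the 478 genes, the Pearson correlation of log2 levels in F. ramosissima and F. robusta was 0.50 and the Spearman correlation 0.443, while across the 6474 other rows they were 0.76 and 0.679. These describe genes of the same libraries, which are not independent replicates, and the floor of 5 TPM was the same for both sets. Levels within 2-fold of each other were found for 251 genes (52.5%), against 59.0% of other rows. A level at least 10-fold higher in F. ramosissima was found for 18 genes (3.77%), against 0.510% of other rows, and a level at least 10-fold lower in F. ramosissima for 13 genes (2.72%), against 0.958%. These fold classes use the values as deposited. They were not computed with other scaling, which moved the median difference between the species, as given below.

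**Figure D2:**
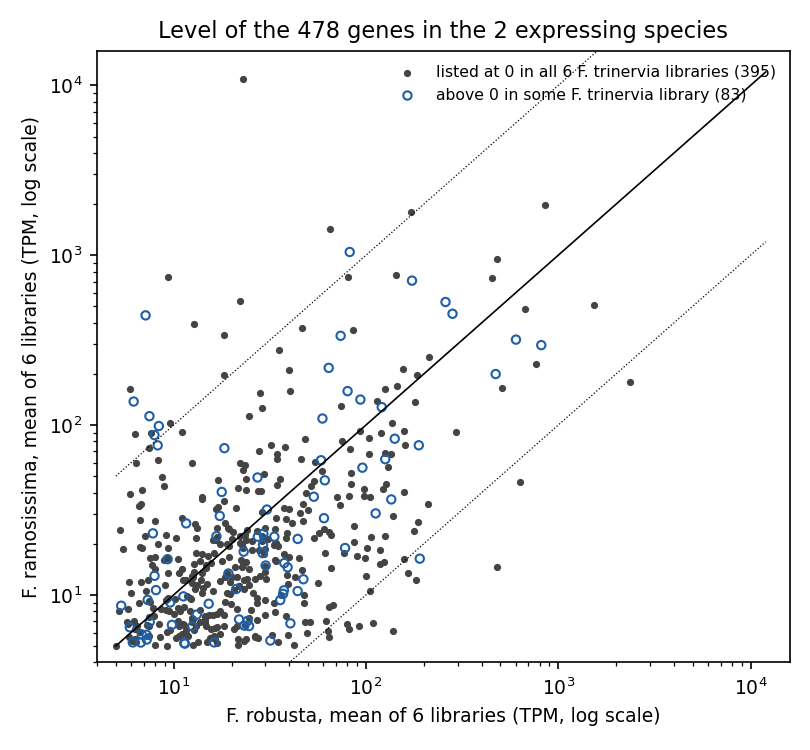
Mean level in F. ramosissima (vertical, TPM, log scale) against F. robusta (horizontal, TPM, log scale) for the 478 genes, with 6 libraries behind each mean; the solid line marks equal levels and the dotted lines 10-fold differences. Filled points are the 395 genes listed at 0 in F. trinervia and open circles the other 83; the point at the upper left is the most abundant gene, at 10892 TPM in F. ramosissima and 22.8 TPM in F. robusta.

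In the limma model of the 12 libraries, 301 of the 478 genes passed an adjusted p of 0.05 for a level difference between F. ramosissima and F. robusta, with 99 higher and 202 lower in F. ramosissima. The background was 75.5 percent of 18861 tested rows, with 32.1 percent higher and 43.4 percent lower, and the share was 63.0% for the chosen genes, against 62.9% for the 6474 other rows. The share of genes that differed was thus near that of other rows with the same floor. That floor of 5 TPM in both species limits how far the levels can differ, so the counts are a description. The direction depended on scaling. The median difference was −0.45 on the log2 scale for the chosen genes and −0.35 for all tested rows, and after median-ratio scaling these medians were 0.25 and 0.34, with 185 genes higher and 98 lower in F. ramosissima. With quantile normalization the medians were −0.36 for the chosen genes and −0.44 for all tested rows, with 110 genes higher and 193 lower. Over all tested rows, 13575 of 19098 were called with median-ratio scaling and 14896 of 18861 with quantile normalization. The median of the 6474 other rows was −0.47 with the values as deposited, so the chosen genes lay above these and below all tested rows.

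Individual libraries of the expressing species departed from their group more often for the chosen genes than for other rows. A library listed at 0 was found for 24 genes (5.02%) in F. ramosissima and 16 genes (3.35%) in F. robusta, against 0.232% and 0.108% of the other rows. Both species had such a library for 1 gene, and 439 of the 478 had none. In F. ramosissima, 16 genes were listed at 0 in 1 library, 4 in 2, 2 in 3 and 2 in 4. In F. robusta, 9 were listed at 0 in 1 library, 5 in 2 and 2 in 3. These zeros were spread over the libraries, at most 9 genes in any of them, and F. robusta control replicate 1 had none. The medians of the 2 sets were alike, as given above, but no test of this difference was made.

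**Figure D3:**
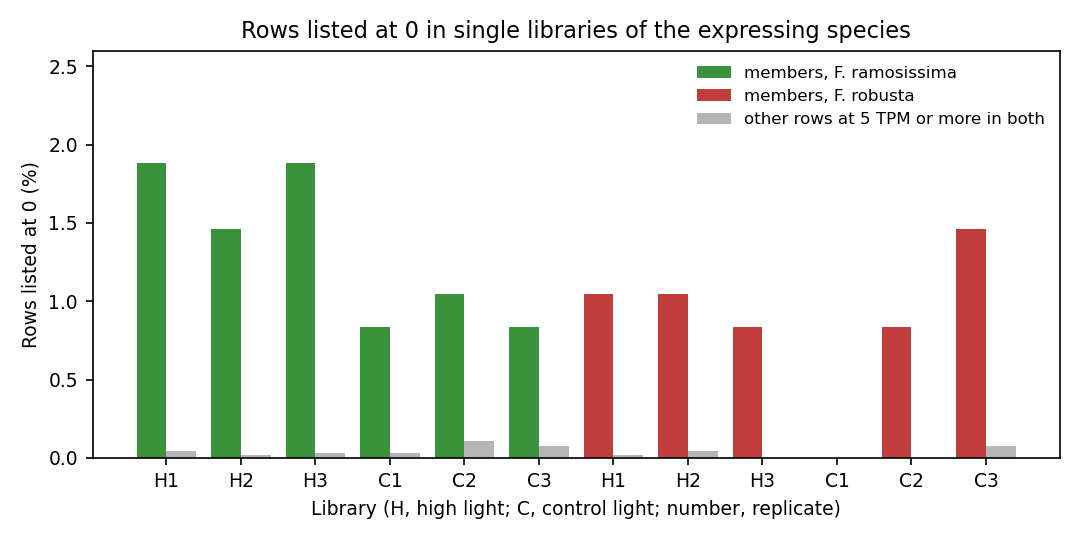
Share of rows listed at 0 (%) in each library of F. ramosissima (H1 to C3, left) and F. robusta (H1 to C3, right), for the 478 genes (coloured) and the 6474 other rows (grey). The highest coloured bars, in F. ramosissima high light 1 and 3, stand for 9 genes each, and the grey bars hold at most 7 rows.

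The wider spread was seen also among genes with no library at 0. The highest library exceeded the lowest by more than 10-fold for 57 of 454 such genes (12.6%) in F. ramosissima and 52 of 462 (11.3%) in F. robusta, against 4.21% and 3.25% of other rows with no library at 0. Over all genes of each set, the SD of log2 values within groups had a median of 0.41 under high light and 0.42 under control light in F. ramosissima for the chosen genes, against 0.31 and 0.33 for other rows. In F. robusta it was 0.44 under high light and 0.36 under control light for the chosen genes, against 0.41 and 0.27 for other rows. All 12 libraries were at 5 TPM or more for 255 genes (53.3%), against 72.6% of other rows, so a mean of 5 TPM or more did not imply that every library reached it.

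Some abundant genes changed between full expression and near 0 among replicates of the same light level. The gene of rank 21 had 301, 390 and 0.80 TPM under high light and 0, 290 and 11.1 TPM under control light in F. ramosissima. In F. robusta it had 413, 998 and 519 TPM under high light and 405, 725 and 0.43 TPM under control light. The gene of rank 20 had 40.5, 1.54 and 23.1 TPM under high light and 1063, 2666 and 8.05 TPM under control light in F. robusta, so a control library lay among the high light ones. Neither gene had groups that were separate by light in these libraries, and both were picked after their values were seen.

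The chosen genes were not evenly placed along the gene numbers. Numbers above 19000 were carried by 351 of them (73.4%), against 42.0% of the 6474 other rows and 49.7% of all rows. The sources used here do not give what orders the numbers, and the split point was set after values of these data were seen.

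High light changed few of the chosen genes beyond the spread of the replicates. In F. ramosissima, 2 of the 478 passed an adjusted p of 0.05 in limma, 1 higher and 1 lower (0.418%), beside a background of 0.159 percent of tested rows (0.0689 percent higher, 0.0901 percent lower). At an unadjusted p under 0.05 there were 15 higher and 35 lower (10.5%), beside a background of 11.5 percent (3.47 percent higher, 7.98 percent lower), so the set was near the other rows at that level. The 3 high light libraries did not overlap the 3 control libraries for 67 genes (14.0%), 22 higher and 45 lower, beside a background of 14.6 percent (4.65 percent higher, 9.93 percent lower). On the log2 scale the median change was −0.09, against −0.12 for the 6474 other rows and −0.11 for all tested rows. This median followed the scaling, since with median-ratio scaling it was 0.11 for the chosen genes and 0.04 for all tested rows. The number of calls was 9 without control replicate 2, where the calls over all tested rows were 321 against 30 with every library. It was 1 without high light replicate 3, control replicate 1 or control replicate 3, with 60, 58 and 54 calls over all tested rows. Without F. robusta high light replicate 3 or F. robusta control replicate 1 it was also 1, with 17 calls over all tested rows each time.

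In F. robusta, 3 of the 478 genes passed, 1 higher and 2 lower (0.628%), beside a background of 0.244 percent (0.0954 percent higher, 0.148 percent lower). At an unadjusted p under 0.05 there were 37 higher and 26 lower (13.2%), beside a background of 11 percent (4.87 percent higher, 6.11 percent lower). Light groups did not overlap for 79 genes (16.5%), 40 higher and 39 lower, beside a background of 12.3 percent (4.64 percent higher, 7.67 percent lower). Changes of more than 2-fold were higher for 14 genes (2.93%) and lower for 61 (12.8%) in F. ramosissima, against 1.22% and 5.89% of the other rows and 2.22% and 6.51% of all tested rows. In F. robusta they were higher for 55 genes (11.5%) and lower for 23 (4.81%), against 4.87% and 2.44% of the other rows and 4.36% and 2.66% of all tested rows. Among changes of more than 2-fold, the skew toward lower values in F. ramosissima and higher values in F. robusta was thus found in all tested rows. In F. robusta it was not found in all tested rows by unadjusted p or by non-overlap. By these measures more of all tested rows were lower than higher, while more of the chosen genes were higher than lower. On the log2 scale the median change was −0.03, against −0.05 for the other rows. The few calls changed with single libraries. Over all tested rows there were 46 calls with every library, 161 without high light replicate 2 and 64 without control replicate 3. The number among the 478 genes was 7 without high light replicate 2 and 5 without control replicate 3. It was 1 without high light replicate 1, control replicate 1 or F. ramosissima control replicate 1, with 30, 39 and 44 calls over all tested rows. It was 0 in limma without high light replicate 3 or control replicate 2, with 6 calls over all tested rows each time. Without F. ramosissima high light 1, high light 2 or control 3 it was also 0, with 17, 17 and 22 calls over all tested rows. Over all settings with 0 calls, which also included a replicate block and F. robusta alone, 48 to 68 genes had an unadjusted p under 0.05. In the main model this count was 63, beside the background of 11 percent given above. The share of all tested rows with an unadjusted p under 0.05 was not computed for the settings with 0 calls.

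**Figure D4:**
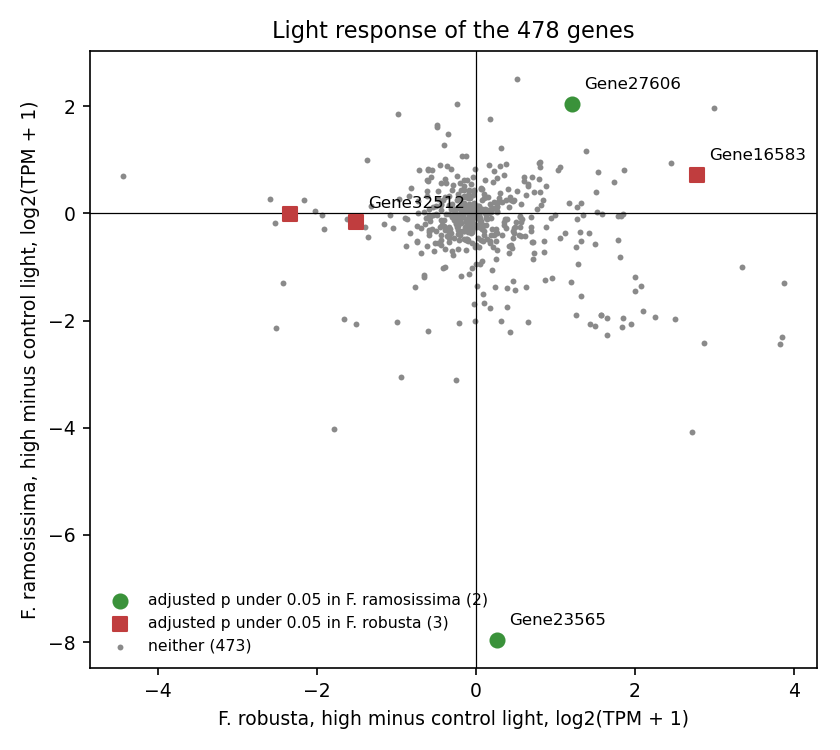
Light response in F. ramosissima (vertical) against F. robusta (horizontal) for the 478 genes, each as high minus control light on the log2(TPM + 1) scale; large circles passed an adjusted p of 0.05 in F. ramosissima (2 genes), squares in F. robusta (3 genes) and small points in neither (473). Most points lie near 0, and Gene23565 stands alone at −7.96 in F. ramosissima.

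About as many genes had responses of the same sign in the expressing species as of opposite signs. Across the 478 genes, 243 (50.8%) had the same sign in both species, against 51.6% of other rows, and the Pearson correlation of the responses was −0.17 and the Spearman correlation −0.09. The species share no libraries in this comparison, but genes of 1 library are not independent. The difference of the responses passed an adjusted p of 0.05 for 1 gene, lower in F. ramosissima, beside a background of 0.0901 percent of tested rows (0.0371 percent higher, 0.053 percent lower). At an unadjusted p under 0.05, 20 genes were higher and 41 lower, beside a background of 10.6 percent (3.7 percent higher, 6.9 percent lower). This count of 1 was 9 without F. ramosissima control replicate 2 and 7 without F. robusta high light replicate 2, where the calls over all tested rows were 166 and 81 against 17 with every library. It was 2 without F. ramosissima high light replicate 1 or 2, with 40 and 21 calls over all tested rows.

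The gene that passed for the difference, Gene23565, was listed at 0 in all 3 high light libraries of F. ramosissima, while its 3 control libraries had 218, 377 and 185 TPM (260 ± 103, SD). It was the only one of the 478 with every high light library at 0 and every control library above 0 in a species. In F. robusta it had 65.5, 47.4 and 96.5 TPM under high light and 137, 14.4 and 84.3 TPM under control light (69.8 ± 24.9 and 78.7 ± 61.7, SD), and the light groups overlapped. It was listed at 0 in all libraries of F. trinervia. In limma the adjusted p was 0.000365 for light in F. ramosissima and 0.0083 for the difference from F. robusta, where the change was 0.26 on the log2 scale (SE 0.65, adjusted p = 1). No fold change is given for F. ramosissima, since 1 side is listed at 0. Across every alternative, which included leaving out each library in turn, the adjusted p stayed between 1.36e-06 and 0.00792 for light in F. ramosissima and between 8.44e-05 and 0.042 for the difference.

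The other gene that passed in F. ramosissima was Gene27606, which was higher under high light. It had 14.4, 19.0 and 16.5 TPM under high light and 2.03, 5.53 and 2.85 TPM under control light in F. ramosissima, with no overlap (2.05 on the log2 scale, SE 0.30, limma adjusted p = 0.0276). In F. robusta it had 24.6, 32.6 and 25.3 TPM under high light and 13.3, 7.92 and 13.4 TPM under control light, again with no overlap, and the adjusted p was 0.143 (1.21 on the log2 scale, SE 0.30). The difference between these responses was 0.84 on the log2 scale (SE 0.43, adjusted p = 0.532). The call in F. ramosissima was lost when 8 of the 12 libraries were left out singly. These were high light 2 and 3 and control 1 and 3 of F. ramosissima and high light 1 and 3 and control 1 and 3 of F. robusta, with an adjusted p of at most 0.0827. With F. ramosissima alone in the model, the limma adjusted p was 0.349.

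Gene16583 was higher under high light in F. robusta. It had 129, 118 and 172 TPM under high light and 42.1, 17.7 and 9.22 TPM under control light there (139 ± 28.5 and 23.0 ± 17.1, SD), a change of 2.78 on the log2 scale (SE 0.45, limma adjusted p = 0.0397). In F. ramosissima it had 11.2, 4.93 and 8.64 TPM under high light and 4.20, 4.39 and 4.57 TPM under control light, with no overlap, a change of 0.72 (SE 0.45, adjusted p = 0.615). The call was lost when 9 of the 12 libraries were left out singly: the 6 of F. ramosissima, and high light 1, high light 3 and control 2 of F. robusta. The adjusted p was 0.195 without high light 3 of F. robusta. With a pseudocount of 0.1 it was 0.0737.

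Gene32512 was lower under high light in F. robusta, with 8.62, 6.45 and 6.34 TPM under high light and 22.4, 25.9 and 18.5 TPM under control light (7.14 ± 1.29 and 22.3 ± 3.74, SD). The change was −1.52 on the log2 scale (SE 0.23, limma adjusted p = 0.0322). In F. ramosissima it had 16.3, 15.5 and 10.8 TPM under high light and 17.1, 17.0 and 13.7 TPM under control light, and these groups overlapped (−0.17 on the log2 scale, SE 0.23, adjusted p = 0.879). The call was lost without high light 1, high light 2 or control 3 of F. ramosissima, and without high light 3, control 1 or control 2 of F. robusta, where the adjusted p reached 0.181. A further gene that was lower in F. robusta had 3.06, 5.33 and 2.75 TPM under high light and 37.2, 23.3 and 12.4 TPM under control light (−2.34 on the log2 scale, SE 0.39, limma adjusted p = 0.0422), while in F. ramosissima it had 42.7, 30.2 and 37.9 TPM under high light and 27.7, 34.0 and 53.4 TPM under control light. All 5 genes that passed for light were listed at 0 in every library of F. trinervia, as were 395 of the 478 genes (82.6%).

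**Figure D5:**
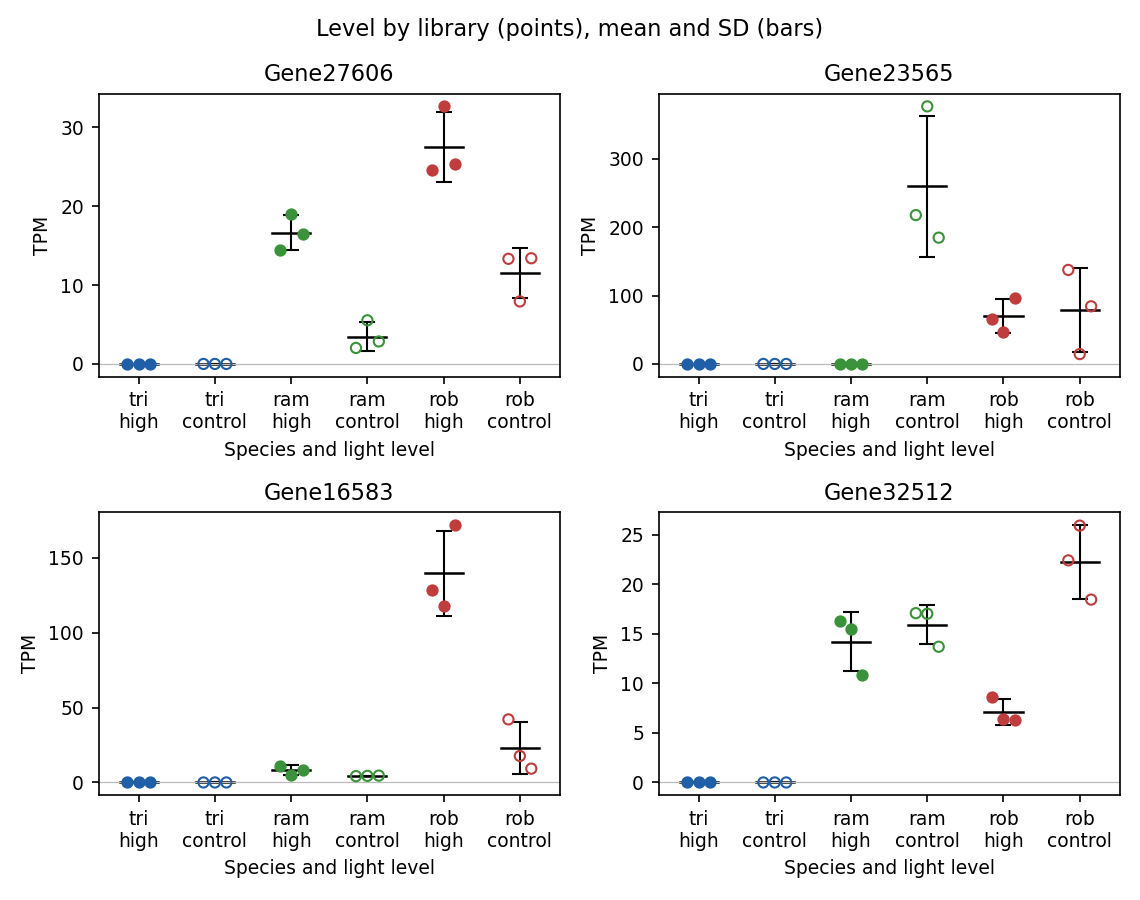
Level (TPM) in each library of the 4 genes whose numbers are given, with groups in the order F. trinervia (tri), F. ramosissima (ram) and F. robusta (rob), high light left of control; points are libraries, horizontal bars means and error bars SD (n = 3). All 4 genes sit at 0 in F. trinervia, and Gene23565 also sits at 0 in F. ramosissima under high light while its control libraries sit between 185 and 377 TPM.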

How the data were processed

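The authors deposited 1 table of TPM values for 18 libraries, whose rows carry numbers only. Per the labels, libraries were sequenced paired-end at 150 bp. RSEM and edgeR are named, with no version, in the submitters' processing notes, and the sources used here do not give the reference. Column names mark light by H, taken to mean high light, and L, taken to mean control, which the labels do not spell out. In the table, 1 line on which rows ran together was left out.

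Levels were compared as log2(TPM + 1), on which fold changes of low genes are understated. Rows that averaged 1 TPM or more across the 12 libraries of F. ramosissima and F. robusta were tested (18861, with all 478 genes among them). The test was limma 3.58.1 in R 4.3.3 (lmFit, eBayes with trend, two-sided) in 1 model of 4 groups with 8 residual degrees of freedom. P-values were adjusted over all tested rows by Benjamini-Hochberg, with a threshold of 0.05. F. trinervia was kept out of this model, because its values near 0 would add residual degrees of freedom with almost no spread. With 3 against 3 libraries an exact permutation test cannot go below 0.1, so none was used.

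The genes and tests were chosen with earlier results of these data known. The 4 printed numbers are, in each expressing species, the genes with the largest and the smallest moderated statistic for light. Genes of rank 20 and 21 were picked after their values were seen. Alternatives were a pseudocount of 0.1, no filter or one at 5 TPM, median-ratio scaling, quantile normalization, a replicate block, each species alone, all 18 libraries, other thresholds of the rule and leaving out each library. The scripts were tested on simulated data.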

Additional observations from a re-analysis of the deposited data

Results flagged for a closer look

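One gene passed the test for a different light response in the expressing species. For Gene23565 the light response of F. ramosissima minus that of F. robusta was −8.22 on the log2(TPM + 1) scale (SE 0.92, limma adjusted p = 0.0083 over 18861 rows). It was listed at 0 in all 3 high light libraries of F. ramosissima and had 218, 377 and 185 TPM in the control libraries, while the light groups of F. robusta overlapped. The size of this value depends on the pseudocount, since 1 group is listed at 0, and it was −11.55 with a pseudocount of 0.1. Groups held 3 libraries each, so no library was tested for standing far from the rest of its group. The gene of rank 21 changed between full expression and near 0 among replicates of the same light level. Whether the zeros of Gene23565 reflect light or such a change between samples was not tested.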

How the results depend on the processing

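The number of chosen genes was 282 with means of at least 10 TPM in the expressing species and 255 with every library of them at 5 TPM or more, and 458 to 489 without single libraries. Median-ratio scaling gave 568, of which 465 were among the 478. For light in F. ramosissima, 2 calls (30 over all tested rows) became 4 with median-ratio scaling (129), 4 with quantile normalization (141), 14 with all 18 libraries (443), 1 with the species alone (4), and 1 to 9 without single libraries. For F. robusta, 3 calls (46 over all tested rows) became 1 with a pseudocount of 0.1 (16), 16 with all 18 libraries (404), 0 with the species alone (2 over all rows in limma, with 66 of the 478 genes at an unadjusted p under 0.05), and 0 to 7 without single libraries. For the response difference, 1 call (17 over all tested rows) became 4 with median-ratio scaling (69), 4 with quantile normalization (57), 21 with all 18 libraries (337), and 1 to 9 without single libraries. The median light change in F. ramosissima was 0.11 with median-ratio scaling and 0.061 with quantile normalization, and −0.18 to −0.02 without single libraries, and in F. robusta −0.13 to 0.15 without single libraries. The calls for level lay between 277 and 333 in all settings. Over all tested rows they ran from 8378 of 11167 with the filter at 5 TPM to 19735 of 28244 with no filter. The cause of these changes was not tested. None of the 4 numbered genes changed direction in any alternative.

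No sign was found that replicate numbers pair the samples. Each library was taken as its departure from its group mean, and high light departures were correlated with control departures. Same-numbered libraries gave −0.09, 0.18 and 0.07 in F. ramosissima and 0.10, −0.11 and −0.03 in F. robusta. Among differently numbered libraries, the lowest and highest values were −0.33 and 0.26 for F. ramosissima. For F. robusta these limits were −0.18 and 0.15. No same-numbered value lay outside the limits of its species. With the replicate block, calls were 1 for light in F. ramosissima (39 over all tested rows). In F. robusta they were 0 (4 over all rows in limma, with 68 of the 478 genes at an unadjusted p under 0.05). With the block there were also 2 calls for the response difference (19) and 293 for level (14336). Gene27606, Gene16583 and Gene32512 were not called with the block or with their species alone. TPM keeps no depth, so the precision of low values is unknown.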
